A study of Mus musculus with 6 samples.

Results

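The 10 genes described here encode the classical and non-classical MHC class I heavy chains H2-K1, H2-D1, H2-Q4, H2-Q6, H2-Q7 and H2-T23, the shared light chain B2m, and the peptide loading proteins Tap1, Tap2 and Tapbp. They were chosen by gene symbol from the 16533 genes of the count tables, and all 10 were present and passed the expression filter. The choice was made with the results of the same genotype comparison known, so their levels and differences are given as a description, with no p-value.

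RNA was sequenced from ligated mouse inferior vena cavae, each taken with its thrombus 24 h after ligation, which models deep vein thrombosis because a clot forms where the flow is blocked. The mKO mice were Stingf/f Lyzm-Cre+/-, and the control mice were Stingf/f, with no Cre in their genotype label although their titles call them WT. Both groups carry the loxP-flanked Sting1 gene, and all animals were ligated. Each library pooled 3 thrombi and each genotype had 3 libraries, so the spread given below is a spread between pools; no source used here gives their age or sex. Lyzm-Cre is expressed from the Lyz2 locus and acts in the myeloid cells (macrophages, monocytes and neutrophils), while endothelium, smooth muscle, lymphocytes and platelets keep Sting1. The controls lack Cre, so the loss of Sting1 cannot be told apart from the presence of Cre in the Lyz2 locus.

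MHC class I molecules show short peptides from inside the cell to CD8 T cells and natural killer cells. Proteasomes cut proteins into peptides, the Tap1 and Tap2 transporter carries them into the endoplasmic reticulum, and tapasin (Tapbp) holds an empty heavy chain with B2m at the transporter until a peptide binds. Class I genes are expressed by nearly all nucleated cells and are raised by interferons and by the class I transactivator Nlrc5. STING, the product of Sting1, is an endoplasmic reticulum protein that responds to cyclic dinucleotides made after DNA is sensed in the cytosol and drives type I interferon production.

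The promoters are shown first, because the heavy chain genes whose levels differed most between the genotypes and H2-D1, whose levels overlapped, share much of the same sequence. RefSeq promoter windows, reaching from 250 bases before to 50 bases after a start site, were found for 9 of the 10 genes, all but Tap2. Stretches of these windows from the mouse build GRCm38.p6 are printed 5′ to 3′ along the gene's strand, with capitals marking the motifs described after them.
H2-K1, chr17:34000408-34000482, minus strand: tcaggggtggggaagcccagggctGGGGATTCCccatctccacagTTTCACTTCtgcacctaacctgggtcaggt
H2-D1, chr17:35262899-35262973, plus strand: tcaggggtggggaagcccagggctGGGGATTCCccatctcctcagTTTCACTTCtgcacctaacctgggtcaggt
H2-Q4, chr17:35379419-35379493, plus strand: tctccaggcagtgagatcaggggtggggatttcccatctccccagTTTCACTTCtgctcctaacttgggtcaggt
H2-Q6, chr17:35424653-35424727, plus strand: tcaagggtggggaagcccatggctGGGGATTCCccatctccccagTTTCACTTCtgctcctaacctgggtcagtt
H2-Q7, chr17:35438997-35439071, plus strand: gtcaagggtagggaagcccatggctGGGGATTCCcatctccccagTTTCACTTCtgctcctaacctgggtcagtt
H2-T23, chr17:36032795-36032869, minus strand: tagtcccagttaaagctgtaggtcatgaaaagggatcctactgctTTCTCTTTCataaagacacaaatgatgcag
B2m, chr2:122147503-122147577, plus strand: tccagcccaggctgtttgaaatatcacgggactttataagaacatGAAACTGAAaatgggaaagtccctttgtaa

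Each window was searched on both strands for 5 motifs. The kB site GGGGATTCC, a sequence bound by NF-kB, was present in H2-K1, H2-D1, H2-Q6 and H2-Q7, and in 0.25% of the 32851 promoter windows of the table. Only these exact letters were searched, so a variant of the site, in H2-Q4 or B2m for example, would not be marked. The letters GAANNGAAA, an interferon response sequence of H2 promoters, were found in H2-K1, H2-D1, H2-Q4, H2-Q6 and H2-Q7, in each as TTTCACTTC on the gene's strand, and in 7.52% of all windows. That motif was added after the promoters had been read. H2-T23 and B2m instead held the interferon-stimulated response element GAAANNGAA, as do 8.56% of all windows, H2-T23 as its reverse complement. The gamma-activated site TTCNNNGAA, present in 8.3% of all windows, was in none of the 9, and CCAAT, present in 37.4%, was in all 9. No match of a motif overlapped a match of another in the 9 windows. H2-K1 has 2 RefSeq start sites, and its kB site starts at -111 from the first and -125 from the second, its response sequence at -90 and -104. The kB site and the response sequence start in H2-D1 at -171 and -150, in H2-Q6 at -173 and -152, and in H2-Q7 at -133 and -113. The promoters of H2-D1 and H2-Q6 hold the same 2 motifs at nearly the same distances. The log2 fold changes of the 2 genes, given below, were -0.13 and -1.09, and whether promoter sequence bears on them was not tested.

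Tap1 shares its promoter with the immunoproteasome subunit gene Psmb9, which is read in the opposite direction. Their start sites lie 225 bases apart, and the bases between them are printed along the Tap1 strand with the CCAAT box in capitals, because Tap1 and Psmb9 are compared below.
Tap1 and Psmb9, chr17:34187331-34187555, plus strand: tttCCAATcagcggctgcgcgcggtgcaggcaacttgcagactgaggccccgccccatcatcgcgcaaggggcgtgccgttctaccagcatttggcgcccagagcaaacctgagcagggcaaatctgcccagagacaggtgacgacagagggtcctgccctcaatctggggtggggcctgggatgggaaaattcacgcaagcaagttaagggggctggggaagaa
The letters of the kB site and of the 3 interferon motifs were not found in the Tap1 window. A match or its absence describes letters in these windows and says nothing of binding.

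Levels are in CPM, the library's counts scaled to a common TMM-adjusted total. Library totals ran from 158579864 to 180068483 counts, so even H2-Q6, with the fewest counts of the 10 genes, had at least 1183 per library, and counting error was small beside the spread between pools. Haemoglobin genes took 21.2% to 27.1% of counts and mitochondrial genes 8.56% to 14.4%. Sting1, the targeted gene, had 22.7, 21.4 and 28.7 CPM in mKO libraries, against 25.1, 31.4 and 27.1 CPM in control libraries (edgeR quasi-likelihood test, adjusted p = 0.579), so the groups overlapped. The sources used here do not say which exons are floxed, and other cells of the vein keep the gene, so this level does not check the labels closely. Lyz2, the locus that carries Cre, was lower in all 3 mKO libraries, at 643, 1149 and 1153 CPM, against 1430, 1759 and 1885 CPM in control libraries (exact two-sided permutation test, p = 0.1, the smallest that 3 against 3 allows). mKO library 3 stood apart in its tissue content, with a summed level of sympathetic neuron markers of 3.10 CPM, where the remaining 5 libraries held 108 to 302 CPM, and the highest skeletal muscle markers, 165 CPM. Control library 2 had the largest mitochondrial share, 14.4%, and the highest summed smooth muscle markers, 3013 CPM. In bulk samples such as these, fewer cells of a type and less RNA per cell cannot be told apart.

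The 10 genes together took 0.388%, 0.408% and 0.372% of all counts in mKO libraries, against 0.531%, 0.666% and 0.547% in control libraries. Every mKO library therefore had a smaller class I share than every control library. B2m held 342127 to 796430 counts per library and H2-D1, the next highest, 159369 to 223515, so this share weighs B2m most. On the log2 scale the 10 genes had a median difference of -0.48, mKO over control, and the 10 values ran from -1.09 to -0.01, against a median of -0.03 and a middle range of -0.23 to 0.16 over the 16523 genes tested. In 7 of the 10 genes all mKO libraries lay below all control libraries; over all genes tested the share lying apart in that direction was 9.39%. Since the genes were chosen from this contrast, the 7 are a description only. Without mKO library 3 the median difference was -0.49 and 7 of the 10 lay apart, while the number lying apart in either direction over all genes was 4559 without that library and 3001 with it. Without control library 2 the median difference was also -0.49, 7 of the 10 lay apart, and the number over all genes was 3700.

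No gene in the table passed an adjusted p of 0.05 in the edgeR quasi-likelihood test (0% of 16523; smallest adjusted p 0.134). At an unadjusted p under 0.05 the same test gave 1034 genes lower in mKO (6.26%) and 926 higher (5.6%). DESeq2 called 466 genes, of which 222 were lower in mKO (1.34%), H2-K1, H2-Q4, H2-Q6, H2-Q7 and B2m among them. These 5 are named from the contrast that chose them, and nothing is read from their number.

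The classical heavy chains H2-K1 and H2-D1, the main presenters of peptides to CD8 T cells, were not alike. H2-K1 (ENSMUSG00000061232) had 361, 339 and 340 CPM in mKO libraries, against 461, 444 and 442 CPM in control libraries. Its libraries were tightly grouped within each genotype, at 346 ± 12.3 CPM in mKO and 449 ± 10.5 CPM in control (mean ± SD, n = 3 each), and the groups did not overlap. The log2 fold change was -0.37 with a standard error (SE) of 0.13, a level 22.9% lower in mKO. H2-D1 (ENSMUSG00000073411) had 1006, 1136 and 933 CPM in mKO libraries, against 1217, 1061 and 1090 CPM in control libraries. The second mKO library exceeded 2 of the 3 control libraries, and the log2 fold change, -0.13 (SE 0.16), was smaller than its error.

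Within a library the ratio of 2 genes' counts does not depend on the scaling of that library. H2-K1 counts were 0.358, 0.298 and 0.365 times those of H2-D1 in mKO libraries, against 0.379, 0.419 and 0.406 times in control libraries. The ratio was lower in every mKO library than in every control library, with means of 0.340 ± 0.0366 and 0.401 ± 0.0202 (SD, n = 3 each). The transcripts of the 2 genes are 90.4% identical over their aligned bases, yet none of the 150-base stretches of the H2-K1 transcript, the length of a read, occurs in another gene's transcript, and 1.79% of those of H2-D1 do, in H2-Q1.

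**Figure D1:**
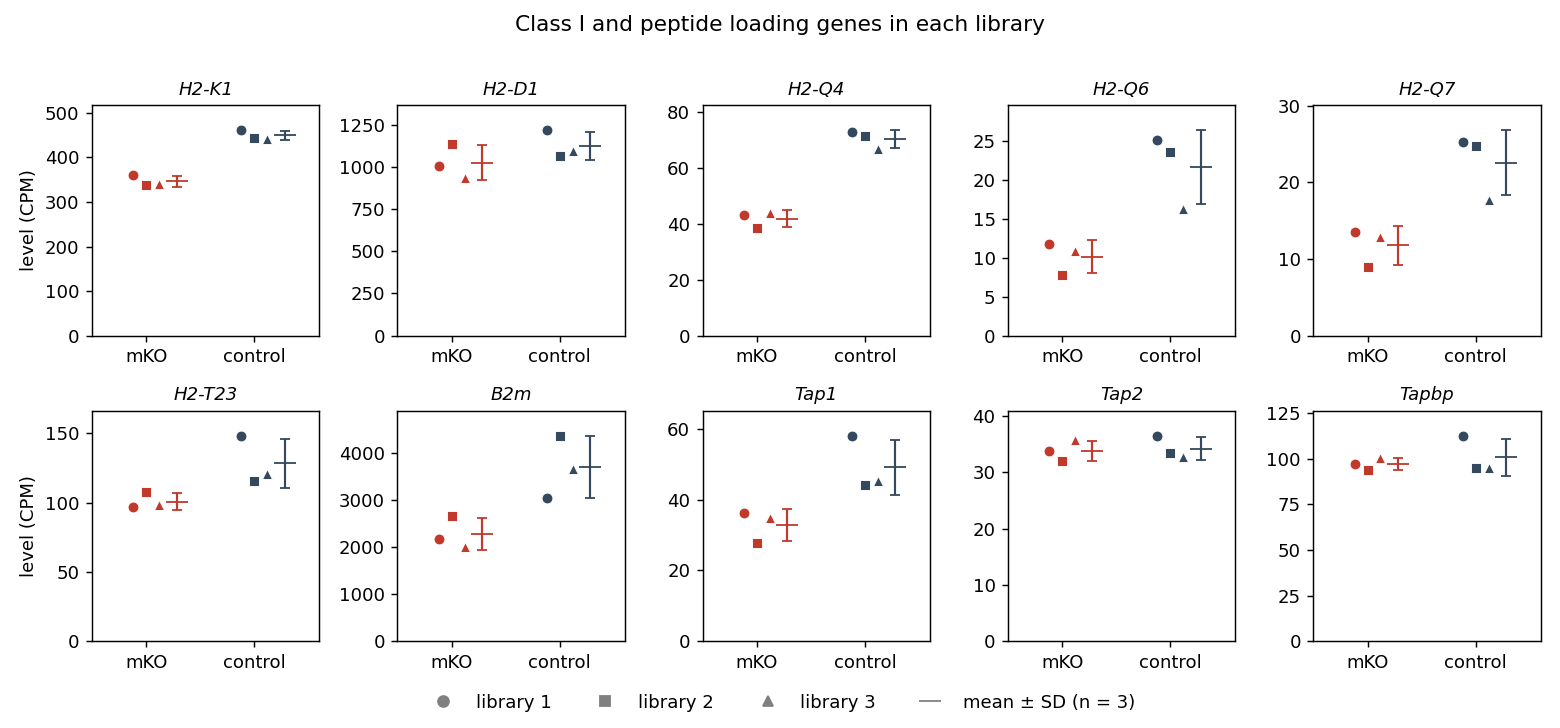
Level in CPM (vertical axes, linear from 0) of each of the 10 genes in the 3 mKO and 3 control libraries; symbols mark libraries, and the bar beside them is the mean with its SD. H2-Q4 shows well-separated groups, at 38.6 to 44.1 CPM in mKO and 66.9 to 72.9 CPM in control, whereas the groups of H2-D1, Tap2 and Tapbp overlap.

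Of the 10 genes, H2-Q6, H2-Q7 and H2-Q4 had the largest differences. H2-Q4 encodes a non-classical class I molecule, and H2-Q6 and H2-Q7 encode forms of Qa-2, which can be anchored in the membrane by a glycolipid. H2-Q4 (ENSMUSG00000035929) had 43.3, 38.6 and 44.1 CPM in mKO libraries, against 72.9, 71.7 and 66.9 CPM in control libraries. The gap between the groups was several times the spread inside either, with a log2 fold change of -0.75 (SE 0.11). H2-Q6 (ENSMUSG00000073409) had 11.8, 7.74 and 10.9 CPM in mKO libraries, against 25.2, 23.6 and 16.2 CPM in control libraries. H2-Q7 (ENSMUSG00000060550) had 13.6, 8.90 and 12.9 CPM in mKO libraries, against 25.3, 24.7 and 17.7 CPM in control libraries. Both were lowest in mKO library 2, and in both control library 3 came closest to the mKO values. Their log2 fold changes were -1.09 (SE 0.22) and -0.94 (SE 0.20).

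The transcripts of H2-Q6 and H2-Q7 are 87.6% identical over their aligned bases, and 8.44% of the 150-base stretches of H2-Q7 also occur in H2-Q6. No source used here says how reads matching both genes were counted, so the split between them is uncertain. H2-Q8 and H2-Q9, further Qa-2 genes, were not among the genes analysed. The ratio of H2-Q6 to H2-Q7 counts was 0.871, 0.870 and 0.850 in mKO libraries, against 0.994, 0.953 and 0.919 in control libraries. The ratio of H2-Q4 to H2-K1 counts was 0.120, 0.114 and 0.130 in mKO libraries, against 0.158, 0.161 and 0.151 in control libraries. Neither ratio overlapped between the genotypes, so H2-Q4 differed by more than H2-K1 in these libraries.

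H2-T23 encodes Qa-1, which presents leader peptides of other class I chains to the CD94 and NKG2 receptors of natural killer cells. It (ENSMUSG00000067212) had 96.6, 107 and 98.1 CPM in mKO libraries, against 148, 116 and 121 CPM in control libraries. The groups lay apart, although mKO library 2 came close to control library 2, and the log2 fold change was -0.35 (SE 0.14).

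B2m (ENSMUSG00000060802), the light chain that every class I heavy chain needs to reach the cell surface, had 2166, 2664 and 2002 CPM in mKO libraries, against 3053, 4368 and 3669 CPM in control libraries. The means were 2278 ± 345 CPM in mKO and 3697 ± 658 CPM in control (SD, n = 3 each), and the groups did not overlap. The log2 fold change was -0.70 (SE 0.20), a level 38.4% lower in mKO. Unlike for H2-Q4, H2-Q6 and H2-Q7, mKO library 2 was the highest of the mKO libraries, so the order of the libraries within a genotype was not shared by all of the genes.

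Per kilobase of transcript, which allows genes to be compared, B2m was the highest of the 10 at a mean of 2648 CPM per kb in mKO and 4298 CPM per kb in control. H2-D1 followed with 488 CPM per kb in mKO and 534 in control, H2-K1 with 214 in mKO and 278 in control, and H2-T23 with 68.4 in mKO and 87.1 in control. Tapbp and H2-Q4 stood at 33.5 and 23.4 CPM per kb in mKO libraries, whereas H2-Q4, at 39.3, stood above Tapbp, at 34.8, in control libraries. Neighbours in this order down to H2-T23 did not overlap within a genotype, whereas the Tapbp range in control, 32.8 to 38.9 CPM per kb, came up to that of H2-Q4. The lowest levels in mKO were those of Tap1, at 11.1 CPM per kb, Tap2, at 9.82, H2-Q7, at 7.74, and H2-Q6, at 4.88; in control Tap1 stood at 16.6, H2-Q7 at 14.8, H2-Q6 at 10.4 and Tap2 at 9.92. The mKO libraries of H2-Q7 and H2-Q6 all lay below those of Tap2, whereas in control H2-Q7 lay wholly above Tap2 and H2-Q6 overlapped with it. Tap1 overlapped with Tap2 in mKO and with H2-Q7 in control.

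The make-up of the heavy chain transcripts was compared by summing the 6 heavy chains per kilobase. H2-Q4, H2-Q6 and H2-Q7 made up 4.80%, 3.64% and 5.05% of that sum in mKO libraries, against 6.71%, 7.30% and 6.09% in control libraries. H2-K1 and H2-D1 made up 87.1%, 87.8% and 86.2% in mKO libraries, against 83.6%, 84.2% and 85.1% in control libraries. The share of these 3 Q genes was lower, and that of H2-K1 and H2-D1 higher, in every mKO library than in every control library. The sum leaves out class I heavy chains that are not among the 10 genes, so the shares are of these 6 only. Of those left out, H2-Q10 averaged 38.8 CPM per kb in mKO libraries and 31.4 CPM per kb in control libraries. H2-M1 averaged 43.4 in mKO and 27.6 in control. H2-M9 averaged 32.5 in mKO and 47.0 in control, and H2-T22 averaged 24.6 in mKO and 35.8 in control. B2m per kilobase was 3.13, 3.63 and 3.07 times the heavy chain sum in mKO libraries, against 3.43, 5.49 and 4.58 times in control libraries, and these overlapped. The H2-T23 share overlapped too, at 8.15% to 8.78% in mKO and 8.50% to 9.74% in control.

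**Figure D2:**
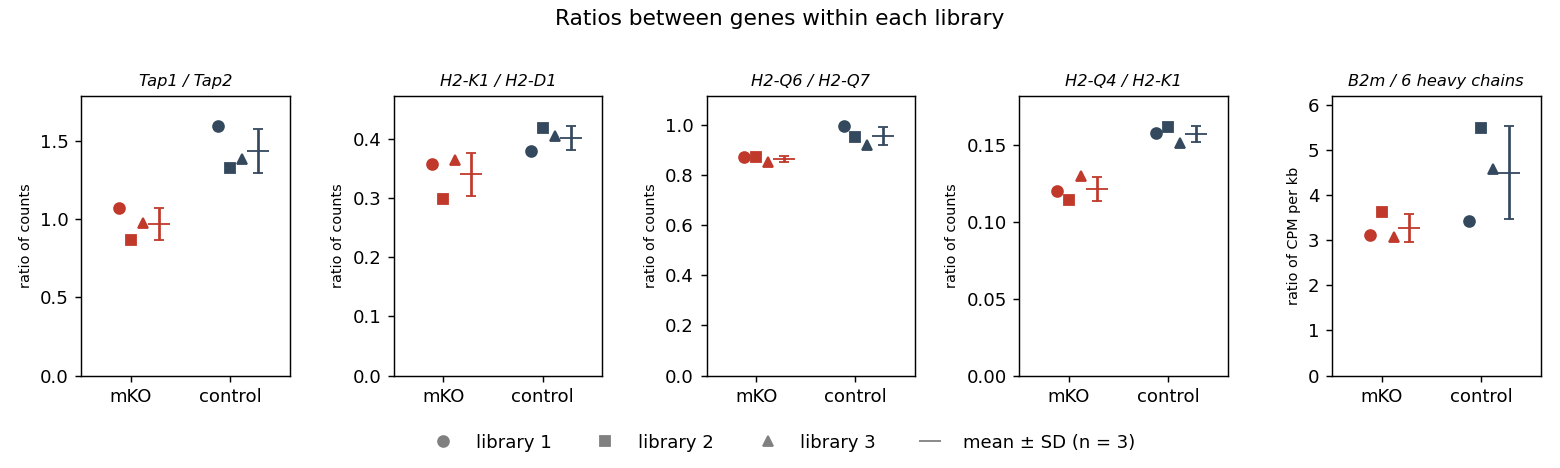
Ratios between genes inside each library (vertical axes, linear from 0), from counts or, in the last panel, from CPM per kilobase, with library symbols and the mean ± SD beside them. The Tap1 to Tap2 ratio is 0.865 to 1.07 in mKO and 1.32 to 1.59 in control libraries, while the ratio of B2m to the 6 heavy chains overlaps.

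Tap1 and Tap2 form the peptide transporter together, yet their transcripts differed between the genotypes in unlike ways. Tap1 (ENSMUSG00000037321) had 36.1, 27.7 and 34.7 CPM in mKO libraries, against 58.1, 44.1 and 45.2 CPM in control libraries. Tap2 (ENSMUSG00000024339) had 33.8, 32 and 35.7 CPM in mKO libraries, against 36.5, 33.3 and 32.6 CPM in control libraries. The Tap1 groups lay apart, with a log2 fold change of -0.58 (SE 0.15), while those of Tap2 overlapped almost wholly, at -0.01 (SE 0.10), a value that turns positive with DESeq2 size factors. The ratio of Tap1 to Tap2 counts was 1.07, 0.865 and 0.974 in mKO libraries, against 1.59, 1.32 and 1.39 in control libraries. Its means were 0.969 ± 0.103 in mKO and 1.43 ± 0.141 in control (SD, n = 3 each), without overlap.

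Tapbp (ENSMUSG00000024308), the bridge between transporter and heavy chain, had 97.2, 93.8 and 100.3 CPM in mKO libraries, against 113, 95.2 and 95.0 CPM in control libraries. The groups overlapped and the log2 fold change was -0.06 (SE 0.12), which turned positive, at 0.03, without control library 1.

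**Figure D3:**
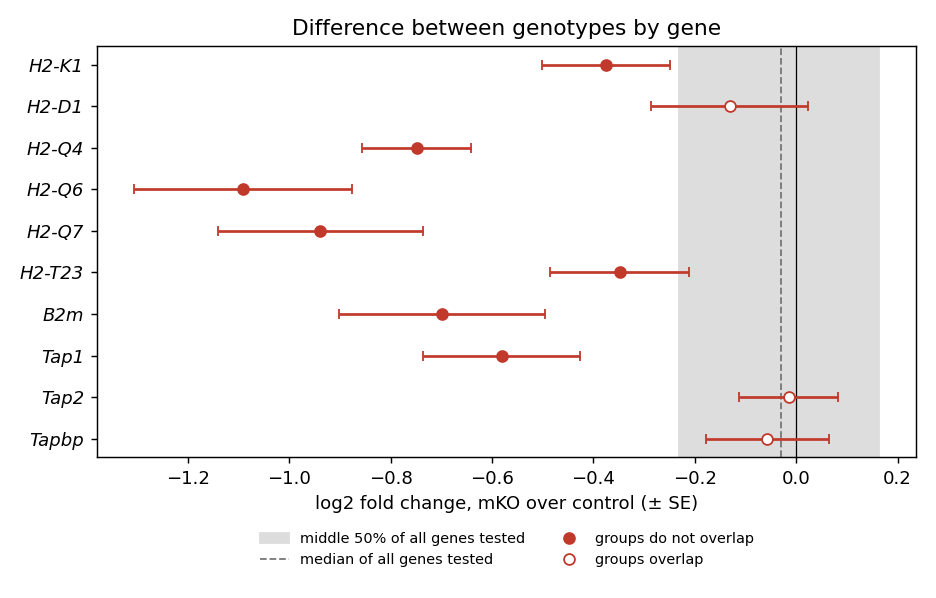
Log2 fold change, mKO over control, with its SE (horizontal axis) for each of the 10 genes (vertical axis); filled points are genes whose groups do not overlap, and the grey band is the middle range of all genes tested, -0.23 to 0.16. H2-Q6, at -1.09, lies farthest from 0, and H2-D1, Tap2 and Tapbp lie inside the grey band.

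Across the 6 libraries, each gene's profile was taken as its log2 CPM less its own mean, and likeness as the root mean square difference between profiles. Tap2 and Tapbp were closest to each other, at 0.0425, followed by H2-Q6 and H2-Q7 at 0.0803 and H2-K1 and H2-T23 at 0.117. H2-Q6 and Tap2 were farthest apart, at 0.582. Averaged over the 10 genes, the profile was -0.19, -0.33 and -0.23 in mKO libraries, against 0.36, 0.26 and 0.13 in control libraries. H2-K1 followed that average most closely of the 10, at 0.0833.

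Outside the pathway, 7777 genes averaging at least 10 CPM were set beside this mean profile over the 6 libraries, with a median distance of 0.322. The 8 closest were Trip6 (0.0655), Mtmr10 (0.0685), Fitm2 (0.0770), Aqp1 (0.0783), Fez2 (0.0842), Arhgap29 (0.0845), Amotl2 (0.0846) and Sbf2 (0.0888). Aqp1, a water channel of red cells and endothelium, had 69.3, 65.7 and 69.0 CPM in mKO libraries, against 91.4, 96.0 and 79.9 CPM in control libraries. The log2 fold changes of the 8 ran from -0.53 for Amotl2 to -0.39 for Aqp1 and Sbf2. Libraries of the same genotype share whatever sets the 2 groups apart, so this likeness describes these 6 libraries only.

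The rest of the pathway was followed in 7 lists of 89 genes in all, of which 69 passed the expression filter. None of the 69 passed the edgeR test. At an unadjusted p under 0.05 in edgeR, 9 were lower and 2 higher in mKO, beside 6.26% and 5.6% of all genes. DESeq2 called 3 of the 69 lower, H2-Q5, H2-T22 and Nlrc5, beside 1.34% of all genes. The median log2 fold change of the 69 genes was -0.09. Of them, 11 lay wholly below and 7 wholly above the control libraries, where 8.77% of all genes lay wholly above. The list genes thus lay below at a share of 15.9%, beside 9.39% of all genes.

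Of the other class I heavy chains, 13 of 27 were tested, with a median of -0.28. H2-Q5, next to H2-Q4 in the Q region, had 4.08, 3.82 and 3.97 CPM in mKO libraries, against 7.55, 7.16 and 6.0 CPM in control libraries. Its groups lay apart, with a log2 fold change of -0.80 (SE 0.14; edgeR adjusted p = 0.165). H2-T22, a ligand of certain gamma delta T cells, had 47.1, 38.4 and 44.2 CPM in mKO libraries, against 67.5, 67.8 and 53.9 CPM in control libraries (log2 fold change -0.54, SE 0.14, edgeR adjusted p = 0.246). H2-M1 went the other way, at 43.9, 43.3 and 50.3 CPM in mKO libraries, against 20.3, 38.7 and 28.5 CPM in control libraries (log2 fold change 0.65, SE 0.22, edgeR adjusted p = 0.350). Q-region genes were not alike either. H2-Q10, a secreted class I chain, had 73.4, 86.8 and 71.8 CPM in mKO libraries, against 76.1, 46.9 and 64.6 CPM in control libraries (log2 fold change 0.31, SE 0.19), and H2-Q1 stood at -0.10 (SE 0.13), with overlapping groups for both; these 2 are named after their values were seen. Class I heavy chains therefore did not all lie on the same side, although 10 of the 13 had a negative difference.

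Chaperones and peptidases of the endoplasmic reticulum, 11 tested of 12, had a median log2 fold change of 0.09. Calreticulin (Calr), which holds the heavy chain in the loading complex, had 394, 360 and 373 CPM in mKO libraries, against 350, 380 and 301 CPM in control libraries. Its groups overlapped, at 0.13 (SE 0.14). Calnexin (Canx), which binds newly made heavy chains, stood at 0.18, with every mKO library above every control library. The tapasin relative Tapbpl, which edits bound peptides, stood at -0.20 and Bcap31, a sorting receptor of the endoplasmic reticulum, at -0.21. None of the 11 had an unadjusted p under 0.05.

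The immunoproteasome cuts peptides suited to class I. All 5 genes of its list had negative differences, from -0.24 to -0.18 on the log2 scale, with none under an unadjusted p of 0.05. Psmb9, the divergent neighbour of Tap1, had 15.4, 10.8 and 13.2 CPM in mKO libraries, against 16.6, 15.2 and 14.3 CPM in control libraries. Its groups overlapped, with a log2 fold change of -0.23 (SE 0.15), beside -0.58 for Tap1 across the 225 bases printed above. Psmb8 stood at -0.23 (SE 0.17), Psmb10 at -0.24 (SE 0.15) and the activator subunit Psme1 at -0.20 (SE 0.11), of which Psme1 alone had groups that did not overlap. The constitutive proteasome genes, 6 of 6 tested, had a median of -0.01, with Psme3 at 0.18, Psmb7 at -0.12 and Psma3 at -0.10.

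Cytosolic peptidases trim or destroy peptides before transport. In this list, 6 of 7 were tested, with a median of -0.09. Lap3, an aminopeptidase, had 20.8, 17 and 19.8 CPM in mKO libraries, against 22.7, 25 and 22.3 CPM in control libraries (log2 fold change -0.28, SE 0.11, edgeR adjusted p = 0.389). Thop1 stood at -0.20 and Blmh at -0.18.

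Among the 16 transcriptional regulators of class I, all tested, the median was 0.10, on the other side of 0 from the 10 genes. Nlrc5 had 12.7, 11.4 and 14.7 CPM in mKO libraries, against 22.6, 19.0 and 16.8 CPM in control libraries (log2 fold change -0.59, SE 0.15, edgeR adjusted p = 0.246). Stat2, a signal carrier below the type I interferon receptor, had 29.7, 23.4 and 34.6 CPM in mKO libraries, against 58.8, 41.5 and 34.9 CPM in control libraries (log2 fold change -0.63, SE 0.22, edgeR adjusted p = 0.364). For Stat2, mKO library 3 and control library 3 nearly met. Of the 16 regulators, 11 had differences above 0.

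Receptors for class I were mostly scarce, and 12 of 16 were tested, with a median of -0.29. Cd8a, a chain of the T cell co-receptor, had 2.21, 2.50 and 2.14 CPM in mKO libraries, against 1.92, 4.76 and 3.32 CPM in control libraries, which overlapped. Cd8b1 stood at -0.66 (SE 0.27; edgeR adjusted p = 0.406). Lilrb4a, an inhibitory receptor of myeloid cells, was abundant at 898, 897 and 875 CPM in mKO libraries, against 854, 571 and 788 CPM in control libraries. Its log2 fold change was 0.27 (SE 0.18).

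**Figure D4:**
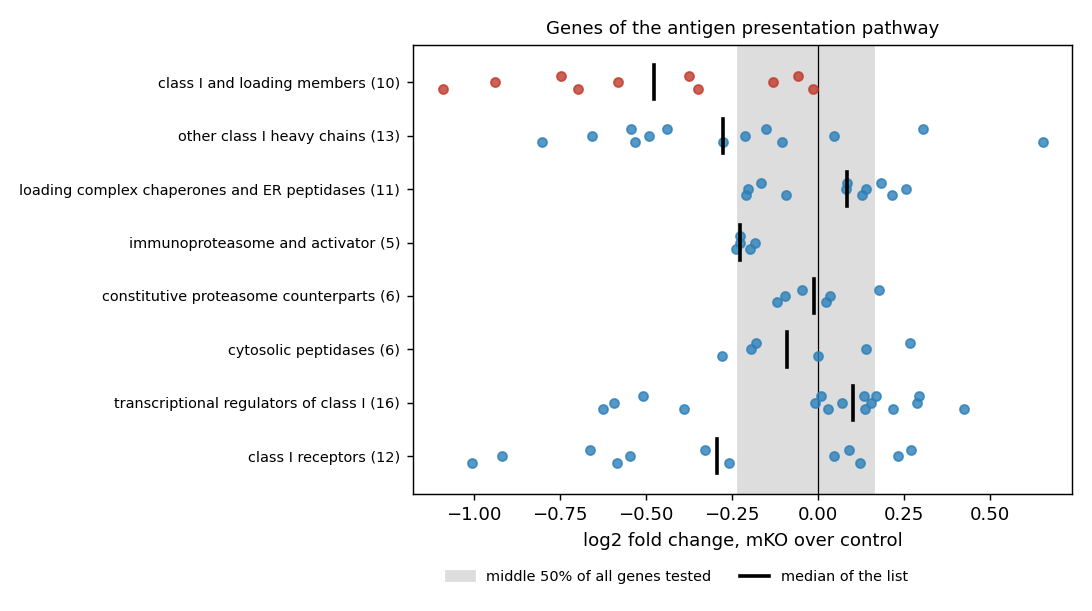
Log2 fold change, mKO over control (horizontal axis), of every tested gene of the 10 described here and of the 7 other lists (vertical axis, number tested in brackets); black bars are list medians and the grey band is the middle range of all genes tested. The median is -0.48 for the 10 genes, -0.28 for the other heavy chains and 0.09 for chaperones.

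All of the 10 genes except B2m, on chromosome 2, lie in the H2 complex on chromosome 17. Between Tapbp and H2-T23 in the gene order of GENCODE M21, 114 other genes were tested, with a median log2 fold change of 0.08, and 5 of them lay wholly below and 15 wholly above the control libraries. That is 4.39% below and 13.2% above, beside 9.39% and 8.77% of all genes. Without genes named H2- there were 99, with a median of 0.07. The 3 lowest neighbours averaging at least 1 CPM were H2-Q5 at -0.80, the unnamed gene model Gm19412 at -0.69 and H2-T24 at -0.66. At the other end, the inflammatory cytokine gene Tnf had 38.3, 27.5 and 19.3 CPM in mKO libraries, against 12.8, 12.5 and 16.6 CPM in control libraries (log2 fold change 1.02, SE 0.25, edgeR adjusted p = 0.255). Ltb, for lymphotoxin beta, stood at 0.73 (SE 0.12; edgeR adjusted p = 0.154) and the class II loading gene H2-DMb1 at 0.77 (SE 0.29).

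**Figure D5:**
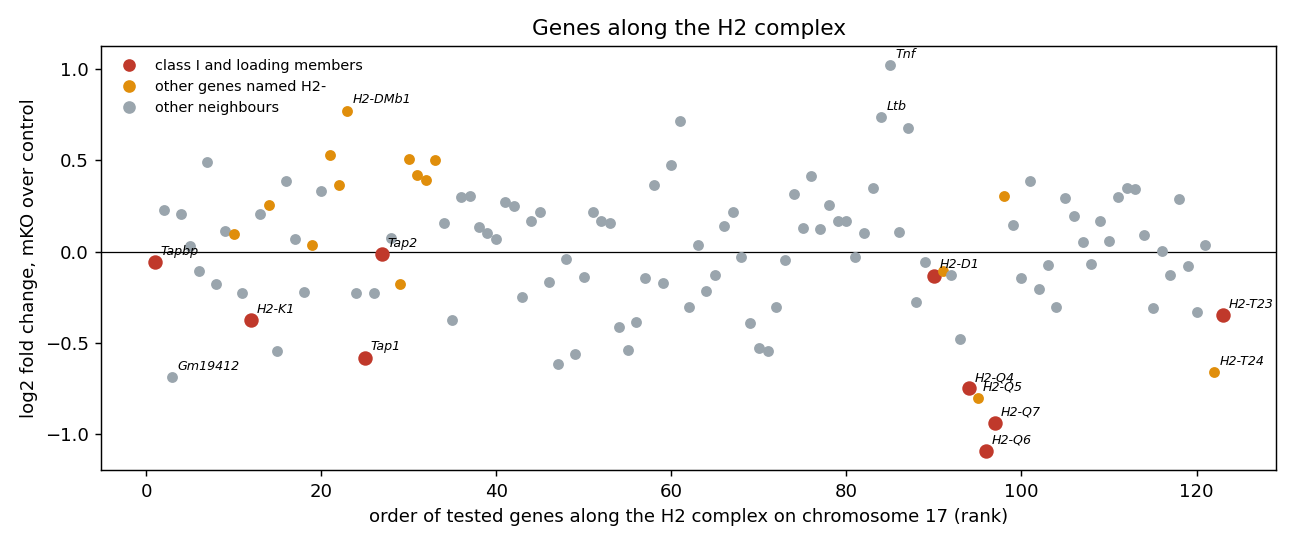
Log2 fold change, mKO over control (vertical axis), of tested genes in their order along the H2 complex (horizontal axis, rank), with the 9 genes described here in red. H2-Q4, H2-Q5, H2-Q6 and H2-Q7 are next to each other, between -0.75 and -1.09, while Tap2, at -0.01, is near Tap1, at -0.58.

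Cell type markers also differed between the libraries. The summed level of 10 endothelial markers was 699 to 847 CPM in mKO libraries, against 929 to 1067 CPM in control libraries, with 4 of the 10 lying wholly below and none above, beside 9.39% and 8.77% of all genes. The 5 adipocyte markers summed to 341 to 510 CPM in mKO libraries, against 630 to 766 CPM in control libraries, and the 4 measured erythroid markers to 1512 to 2009 CPM in mKO libraries, against 980 to 1323 CPM in control libraries. Endothelial and adipocyte markers were thus lower in the same libraries as the class I genes, and erythroid markers higher, and the part of these and the other markers in the class I differences was not tested. The sums of the other 10 marker lists overlapped, neutrophil markers at 13716 to 19082 CPM in mKO and 9642 to 15810 CPM in control, monocyte and macrophage markers at 1345 to 1970 CPM in mKO and 1212 to 1530 CPM in control, and T and NK cell markers at 21.5 to 23.9 CPM in mKO and 21.3 to 41.1 CPM in control. Among the lists whose sums overlapped, all 7 smooth muscle markers had negative log2 fold changes, with a median of -0.85, as did all 5 platelet markers, with a median of -0.48, all 10 T and NK cell markers, with a median of -0.39, and all 5 sympathetic neuron markers, with a median of -0.59. Of the same lists, all 5 skeletal muscle markers had positive log2 fold changes, with a median of 1.83. So did 7 of 10 neutrophil markers (median 0.37) and 8 of 10 monocyte and macrophage markers (median 0.11). The B cell, dendritic cell and fibroblast medians were -0.09, -0.17 and -0.13. The endothelial median was -0.28. No endothelial, adipocyte, myeloid or lymphoid marker was at 0 in any library.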

How the data were processed

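The deposited files hold the authors' raw counts of reads per gene, 1 table per library. Per the submitters' processing notes, which give no roles, the build was GRCm39 and the tools were featureCounts (2.0.1), HISAT2 (2.1.0), Trim Galore (0.4.0) and FastQC (0.11.8); polyadenylated RNA was selected and read as paired 150-base reads, per the labels' protocols. No source used here gives the strand setting or how reads matching several genes were handled, so near-identical H2 genes and overlapping genes are uncertain. The 16533 genes listed include 13 without a symbol.

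Counts were fitted over the whole table with edgeR 4.0.16 in R 4.3.3 (TMM scaling, default expression filter leaving 16523 genes, robust quasi-likelihood F-test, Benjamini-Hochberg adjustment, threshold 0.05), and the script was tested on simulated data. The SE of a log2 fold change is the one the F-test implies. DESeq2 1.42.0, limma 3.58.1 voom, other scalings and filters, a replicate block and leaving out each library were alternatives. CPM were computed from the deposited counts, per kilobase with the longest protein-coding transcript of GENCODE M21, an annotation of an earlier build that also gave gene order and shared 150-base stretches; promoters are RefSeq's. Profiles used log2 CPM with a prior count of 2. No pair of replicate tables agreed within sampling noise. Whether the pools of a genotype came from separate experiments is not stated, so p-values measure only the spread between these pools.

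The 10 genes, the pathway lists and the marker lists were chosen with earlier results of these data known. The genes named were the 10, Sting1 and Lyz2; of each list, since no gene passed the threshold, the 3 with the smallest unadjusted p averaging at least 1 CPM, plus Nlrc5, Psmb8, Psmb9, Calr and Cd8a; the 8 genes closest to the mean profile; and the 3 lowest and 3 highest neighbours in the H2 complex. Some results that this rule would name are not reported here.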

Additional observations from a re-analysis of the deposited data

How the results depend on the processing

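The median log2 fold change of the 10 genes was negative under all 13 alternatives run, lowest at -0.53 (mKO library 1 left out) and highest at -0.40 (control library 1 left out), and 7 or 8 of the genes lay apart when a library was left out. Tap2 turned positive, to 0.0067, both with DESeq2 size factors in edgeR and in DESeq2, and ran from -0.054 to 0.036 when libraries were left out; Tapbp ran from -0.099 to 0.030. The other 8 genes stayed negative under all 13. Over all genes, edgeR called 0, DESeq2 called 466, and leaving out libraries gave 0 to 7 (7 without control library 1, 2 without control library 3, 4 without mKO library 3); the cause was not tested. Of the 69 other pathway genes edgeR called 0 and DESeq2 3, with 11 at an unadjusted p under 0.05 in edgeR. The count of all genes lying apart, 3001, was 3700 to 6003 with a library left out, where fewer libraries make separation easier. Same-numbered libraries did not deviate together (correlations -0.14, -0.15 and -0.27), so no pairing by number was seen. Deviations from a mean of 3 libraries cannot exclude such a pairing. With a replicate block the median of the 10 genes was -0.48 and 0 of all genes were called. In edgeR, 1299 genes had an unadjusted p under 0.05 with the block and 1960 without it. With no block, leaving out a library gave from 1090 (without control library 2) to 2370 (without control library 1) such genes. With 3 pools per genotype, an exact permutation test cannot go below 0.1.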
